A study of Mus musculus with 11 samples.

Results

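The genes of hyaluronan synthesis, turnover and partner proteins were followed in fibroblasts from skin wounds at day 5 (5dw) and from normal skin (NS). They were taken from the expression table by symbol: *Has1*, *Has2*, *Has3*, *Hyal1*, *Hyal2*, *Tnfaip6*, *Vcan*, *Cd44*, *Prg4* and *Ugdh*. All 10 symbols were found among the 47643 listed, and all 10 passed the filter on low values that left 11979 genes for testing. The cells were live CD45-CD140a+ cells sorted from the back skin of female mice aged 9 to 12 weeks, on a mixed background of 50% CD-1 and 50% C57Bl/6. The 4 groups were WT NS (3 libraries), WT 5dw (3 libraries), Act NS (3 libraries) and Act 5dw (2 libraries, since the submitters left out the library numbered 2). WT mice were wild-type littermates. Act mice carried an *INHBA* transgene, which encodes the activin βA subunit, under the keratin 14 promoter, so that keratinocytes and not the sorted fibroblasts were its designed source. Each library held RNA pooled from 3 mice and across sorting sessions, all tissue went through a warm enzymatic digestion before sorting, and less RNA entered the NS than the 5dw libraries. Tissue and RNA input therefore cannot be told apart, and no undigested sample was analysed here.

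Hyaluronan is a very long, unsulphated sugar chain of the extracellular matrix, made at the plasma membrane by hyaluronan synthases from UDP-glucuronic acid and UDP-N-acetylglucosamine. It holds water and gives loose, cell-rich matrix its volume, and it is known to accumulate in early wounds. Proteins such as versican and TSG-6 bind and cross-link it, CD44 on the cell surface holds and takes it up, and hyaluronidases cut it. Only RNA was measured here, not the sugar, its chain length or any enzyme activity, and each value pools all transcripts of a gene.

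Expression values were RPKM, read counts divided by transcript length and by the mapped reads of the library, which allow levels of different genes to be compared per length. Mapped totals recovered from the RPKM steps lay between 18649317 and 39702137 reads per library. *Pdgfra*, the gene of the sorted surface marker CD140a, was listed at 29.6 to 65.3 RPKM in all libraries, and *Ptprc*, the gene of CD45, at 0.0498 RPKM or less. Keratinocyte markers were present: 14 marker genes summed to between 1342 and 5049 RPKM in the NS libraries and to between 182 and 1590 RPKM in the 5dw libraries, the highest wound value being that of WT 5dw 3. *Inhba*, counted on the mouse gene, was 36.3 to 91.1 RPKM in Act NS against 3.40 to 6.93 RPKM in WT NS (log2FC 3.30, adjusted p = 0.0128), while 5dw libraries of the 2 genotypes differed by log2FC 0.86 (adjusted p = 1). Reads of the human transgene may have been counted on the mouse gene, and how many were was not tested. On a principal component analysis, PC1 held 76.1% of the variance and separated wound from skin, and WT NS 1 and Act NS 1 stood apart on PC2.

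The sequences upstream of *Has1*, *Tnfaip6* and *Ugdh* are shown because the library numbered 2 was the highest for these 3 genes in each of the 3 groups that have one, as described further on. RefSeq windows on GRCm38.p6, from 250 bases before to 50 bases after the annotated start, were found for 7 of the 10 genes, and none was given for *Has2*, *Has3* and *Prg4*. All 3 are printed 5′ to 3′ on the strand of the gene: *Has1* from the minus strand at chr17:17855139-17855438, *Tnfaip6* from the plus strand at chr2:52037863-52038162 and *Ugdh* from the minus strand at chr5:65435793-65436092. Capitals mark matches to an AP-1 site (TGANTCA) or a cyclic AMP response element (TGACGTCA), both searched on both strands.
Has1: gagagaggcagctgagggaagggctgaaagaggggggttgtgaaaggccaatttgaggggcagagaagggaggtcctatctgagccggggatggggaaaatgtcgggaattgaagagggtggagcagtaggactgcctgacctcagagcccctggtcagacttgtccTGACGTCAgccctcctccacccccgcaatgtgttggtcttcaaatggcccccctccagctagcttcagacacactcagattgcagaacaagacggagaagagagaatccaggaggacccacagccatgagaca
Tnfaip6: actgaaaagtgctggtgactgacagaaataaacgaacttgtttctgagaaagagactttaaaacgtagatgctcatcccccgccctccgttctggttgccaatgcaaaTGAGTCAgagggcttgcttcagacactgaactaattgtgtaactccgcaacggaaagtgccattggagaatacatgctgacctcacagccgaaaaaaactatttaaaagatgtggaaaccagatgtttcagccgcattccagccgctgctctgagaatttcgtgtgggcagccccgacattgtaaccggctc
Ugdh: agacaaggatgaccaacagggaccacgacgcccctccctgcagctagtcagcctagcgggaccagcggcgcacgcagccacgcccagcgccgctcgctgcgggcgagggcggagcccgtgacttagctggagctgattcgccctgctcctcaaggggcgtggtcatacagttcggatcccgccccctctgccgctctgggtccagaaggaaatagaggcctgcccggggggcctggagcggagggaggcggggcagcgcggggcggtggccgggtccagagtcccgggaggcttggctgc
The *Tnfaip6* match, TGAGTCA, began 142 bases before the start and the *Has1* match, TGACGTCA, 83 bases before it. Neither overlapped another motif searched. Among all 32851 windows of this length, 7.81% held the AP-1 letters and 1.79% the cyclic AMP element. *Ugdh* held neither, nor a TATA box (TATAAA, in 13.6% of windows), a C/EBP site (TTGCNNCAA, 2.08%), a SMAD-binding element (GTCTAGAC, 0.213%), the NF-kB consensus (4.51%) or a CArG box (1.63%), whereas it held GC boxes (GGGCGG), as did 35.7% of all windows. *Has1* and *Tnfaip6* shared a CCAAT box, present in 37.4% of windows. These are matches of letters and no evidence of binding.

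Wounding raised 2 of the 10 genes in both genotypes and lowered 2. *Prg4* and *Cd44* rose, and *Hyal2* and *Has3* fell, while *Has1*, *Has2*, *Tnfaip6*, *Vcan*, *Ugdh* and *Hyal1* did not pass the test in either genotype. Both lists of calls came from limma-trend on log2(RPKM + 0.5) with Benjamini-Hochberg adjustment over all 11979 genes; that scale understates changes of genes at low level. In WT mice 9.45% of all tested genes were called higher and 48.8% lower (58.3% in all), and in Act mice 9.04% were called higher and 36.5% lower (45.6% in all). Called in both genotypes were 7.4% of genes as higher and 34.1% as lower, so that 2 of 10 lower members is no more than the table as a whole shows. By values alone, 2 of the 10 lay above and 2 below NS in every WT wound library, where 11.4% and 55% of tested genes did, and 3 above and 3 below in every Act wound library, where 14.4% and 49.8% did. The median log2FC of the 10 genes was 0.06 in WT and -0.02 in Act mice, beside -0.40 and -0.31 over all tested genes. That general shift moved with the scaling: after median-ratio scaling, which brings the median of all genes close to 0, 2684 genes were called higher and 2655 lower in WT mice, against 1132 and 5846 on the RPKM scale, and in Act mice 2384 and 2492 against 1083 and 4376. Quantile normalization gave 2440 and 2328 in WT and 2412 and 2066 in Act mice. Changes relative to the median gene are therefore given below where they matter. In these bulk libraries fewer cells expressing a gene and less RNA per cell cannot be told apart.

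**Figure D1:**
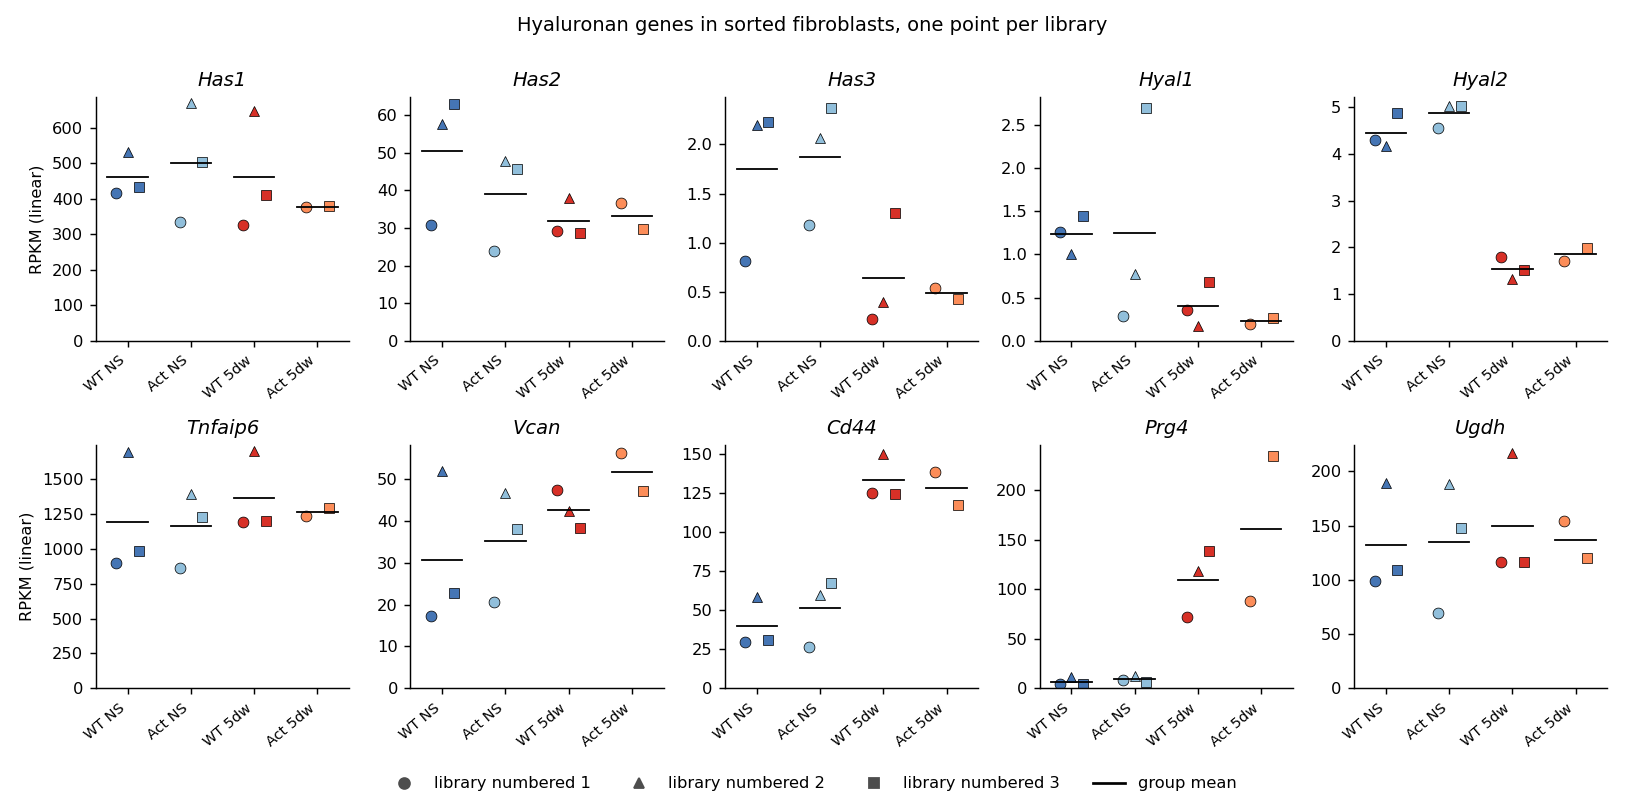
RPKM of the 10 genes (linear axis from 0) in each library, by group; shapes give the library's number and bars the group mean of 3 libraries, or 2 for Act 5dw. *Hyal2*, *Cd44* and *Prg4* separate NS from 5dw in every library, while *Has1*, *Tnfaip6* and *Ugdh* overlap in all groups and are highest in the library numbered 2 of each group that has one.

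*Has1* (chr17:17843323-17855205, minus strand; all gene positions are GENCODE M21 on GRCm38) encodes one of the 3 hyaluronan synthases. It was among the most abundant transcripts of these cells, at rank 76 of 47643 by mean RPKM in NS and rank 87 in 5dw. The WT NS libraries held 417, 531 and 434 RPKM and the Act NS libraries 334, 669.9 and 504. Those of WT 5dw held 327, 647 and 411 RPKM and those of Act 5dw 377 and 379. All 4 groups overlapped. The log2FC of wounding was -0.05 in WT (95% confidence interval -0.66 to 0.57, adjusted p = 0.89) and -0.35 in Act mice (-1.04 to 0.34, adjusted p = 0.38). Relative to the median gene, WT wounds were 0.35 above and Act wounds 0.05 below.

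*Has2* (chr15:56665627-56694539, minus strand), the synthase required for embryonic development, was the second synthase by level. It measured 30.8, 57.5 and 62.8 RPKM in WT NS and 23.9, 47.8 and 45.5 RPKM in Act NS, so that the library numbered 1 was the lowest in each. Wound libraries were less spread, at 29.1, 37.9 and 28.7 RPKM in WT and 36.7 and 29.7 RPKM in Act mice. The log2FC was -0.60 in WT (-1.27 to 0.07, adjusted p = 0.11) and -0.17 in Act mice (-0.92 to 0.58, adjusted p = 0.70). The WT difference passed in 4 of 24 alternatives and the Act difference in 1. With the replicate number as a block the WT difference had an adjusted p of 0.0494. Without WT NS 1 it was -0.92 (adjusted p = 0.0181), and without both NS libraries numbered 1 the Act difference was -0.49 (adjusted p = 0.0342). After median-ratio scaling the same differences were -0.15 and 0.18, so that the sign in Act mice turned with the scale.

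*Has2os*, a gene on the strand opposite to *Has2* that was named after its values were seen because it overlaps *Has2*, was 3.19 to 5.61 RPKM in NS and 1.08 to 1.81 RPKM in 5dw. It fell in both genotypes (log2FC -1.30, adjusted p = 6.2e-04 in WT and -1.43, adjusted p = 9.9e-04 in Act mice). *Has2* shared 3.33% of its 31-base stretches with other genes, mainly with *Has2os*. The libraries were stranded per the labels, but no source used here states whether counting used the strand.

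*Has3* (chr8:106870242-106884566, plus strand), the third synthase, was listed near 1 RPKM. Values were 0.808, 2.20 and 2.23 RPKM in WT NS and 1.18, 2.07 and 2.37 RPKM in Act NS. They were 0.225, 0.392 and 1.30 RPKM in WT 5dw and 0.542 and 0.422 RPKM in Act 5dw. Over all 11 libraries these values stood for 57 to 422 reads. *Has3* fell by 1.02 on the log2 scale in WT mice (-1.83 to -0.20, adjusted p = 0.0349), where WT 5dw 3 overlapped WT NS. In Act mice it fell by 1.24 (-2.15 to -0.33, adjusted p = 0.0305) with no overlap. The call was lost without any of several single libraries, while the log2FC stayed negative. Without WT NS 2 or WT NS 3 the WT value was -0.84 in both (adjusted p = 0.11 and 0.12), and without WT 5dw 1 or WT 5dw 2 it was -0.75 and -0.90 (adjusted p = 0.13 and 0.10). In Act mice leaving out Act NS 2, Act NS 3, Act 5dw 1 or Act 5dw 3 gave -1.16, -1.08, -1.33 and -1.15 (adjusted p 0.0768 to 0.14). Here and below, a fit without Act 5dw 1 or Act 5dw 3 has 1 library in that group, which is assumed to vary like the other groups. It was not called in either genotype after median-ratio scaling (-0.72, adjusted p = 0.13 and -1.02, adjusted p = 0.0688) or quantile normalization (-0.44, adjusted p = 0.33 and -0.78, adjusted p = 0.13), nor in WT mice with array weights or with only the groups compared. The fold was larger with a pseudocount of 0.1 (-1.48, adjusted p = 0.0307 in WT and -1.71, adjusted p = 0.0331 in Act mice) and with limma-voom on recovered reads (-1.69, adjusted p = 0.0249 and -1.92, adjusted p = 0.0663).

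Keratinocyte markers moved with *Has3*, except in Act 5dw, where the library with more *Has3* (Act 5dw 1) held less of them. The 14 genes summed to 1342, 2212 and 2446 RPKM in WT NS and to 1378, 3273 and 5049 RPKM in Act NS. They summed to 182, 367 and 1590 RPKM in WT 5dw and to 406 and 485 RPKM in Act 5dw. Of the 14, 10 fell in WT and 10 in Act wounds, and WT 5dw 3, the wound library with the most *Has3*, was also the one with the highest sum. *Krt10*, the most abundant of them in NS and a keratin of the upper epidermal layers, fell in both (log2FC -5.08 in WT, adjusted p = 6.3e-05, and -6.32 in Act mice, adjusted p = 4.9e-05), whereas *Krt6a*, a keratin of wound-edge keratinocytes, rose in WT wounds (log2FC 3.10, adjusted p = 0.0027; named after its values were seen). Without WT 5dw 3 the *Krt6a* value was 2.20 (adjusted p = 0.0037) and without WT 5dw 1 it was 3.84 (adjusted p = 8.4e-04). Without Act NS 1 the Act value of *Krt10* was -6.95 (adjusted p = 2.6e-05). The part of keratinocyte RNA in the *Has3* values was not tested. *Has3* shares 5.07% of its 31-base stretches with other genes, mainly *Chtf8*, which lies on the opposite strand and reached 17.3 RPKM.

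**Figure D2:**
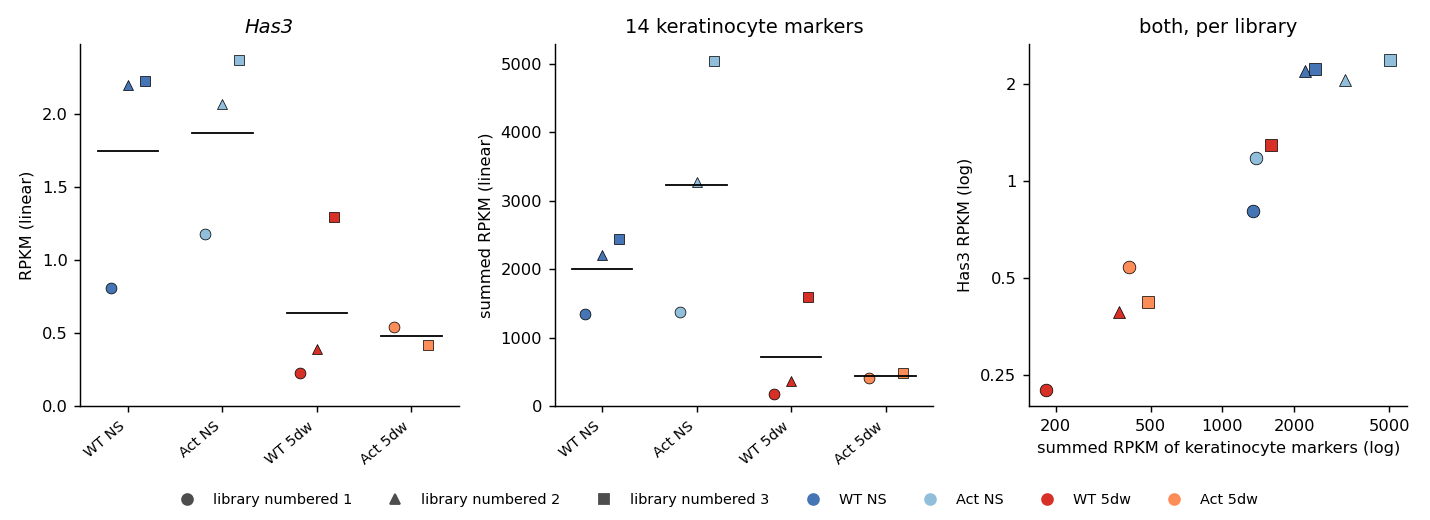
*Has3* RPKM (left, linear axis), the summed RPKM of 14 keratinocyte markers (middle, linear axis) and both against each other on log axes (right) in 11 libraries; bars are group means. The wound library WT 5dw 3 holds 1.30 RPKM of *Has3* and a marker sum of 1590, both the highest among wounds.

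*Has1* made up most of the synthase RNA in every library. Its share of the summed RPKM of the 3 synthases was 86.97% to 93.1% in NS and 91.01% to 94.4% in 5dw; the share of *Has2* was 6.63% to 12.6% and 5.52% to 8.86%. The ratio of *Has1* to *Has2* ranged from 6.91 to 14.03 in NS and from 10.3 to 17.1 in 5dw, and the 2 ranges overlapped. *Has1* values were no whole multiples of 1 read on the GENCODE length, unlike those of the other 9 genes, so that the length the authors divided by is not known; as a constant of the gene it leaves the differences between libraries as they are, but the share of *Has1*, its ratio to *Has2* and its rank all depend on it.

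*Ugdh* (chr5:65413221-65435949, minus strand) encodes UDP-glucose dehydrogenase, which makes the UDP-glucuronic acid that synthases use. It was abundant, at rank 302 in NS and 264 in 5dw. The libraries held 98.5, 189.6 and 109 RPKM in WT NS and 69.5, 188 and 148 RPKM in Act NS. In wounds they held 116, 217 and 117 RPKM (WT) and 154 and 120.1 RPKM (Act). The groups overlapped, and the log2FC was 0.18 in WT (-0.67 to 1.02, adjusted p = 0.71) and 0.12 in Act mice (-0.82 to 1.07, adjusted p = 0.83).

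Of 14 genes that supply UDP-sugars, *Ugdh* included, 2 rose and 1 fell in both genotypes, beside 7.4% and 34.1% of all tested genes. *Pgm2*, a phosphoglucomutase, rose by log2FC 0.87 in WT and 1.11 in Act wounds (adjusted p = 6.3e-04 and 4.3e-04). *Pgm3*, which makes N-acetylglucosamine 1-phosphate, rose by 0.81 and 0.83 (adjusted p = 5.7e-04 and 0.0014). *Slc35d1*, which carries UDP-sugars into the endoplasmic reticulum, fell (log2FC -0.68 and -0.74, adjusted p = 0.0030 and 0.0049). Its call was lost after quantile normalization (adjusted p = 0.29 and 0.17) and, in Act mice, without Act 5dw 3 (-0.60, adjusted p = 0.0548). The median over the 14 was 0.21 in WT and 0.17 in Act mice.

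*Hyal2* (chr9:107567945-107572779, plus strand) encodes a hyaluronidase anchored at the cell surface that cuts long chains into shorter ones. It was the most evenly measured of the 10 genes. WT NS libraries held 4.30, 4.17 and 4.86 RPKM and Act NS libraries 4.54, 5.03 and 5.02 RPKM. WT 5dw libraries held 1.78, 1.33 and 1.52 RPKM and those of Act 5dw 1.72 and 1.98 RPKM. Every wound library was below every NS library. *Hyal2* fell by 1.28 on the log2 scale in WT (-1.54 to -1.02, adjusted p = 1.6e-05) and by 1.19 in Act mice (-1.49 to -0.90, adjusted p = 7.7e-05), or by 0.88 and 0.89 beyond the median gene. It was called under all 24 alternatives in both genotypes. *Gm9917*, on the opposite strand, overlaps it and reached 2.82 RPKM, but shares none of its 31-base stretches.

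*Hyal1* (chr9:107576927-107581710, plus strand), the lysosomal hyaluronidase, was near the limit of detection. It measured 1.26, 1.01 and 1.44 RPKM in WT NS and 0.288, 0.769 and 2.70 RPKM in Act NS, against 0.360, 0.171 and 0.676 RPKM in WT 5dw and 0.193 and 0.258 RPKM in Act 5dw. Between 15 and 234 reads stood behind these values. Wound libraries lay below NS libraries within each genotype, but the log2FC of -0.98 in WT (-1.88 to -0.07) and -1.02 in Act mice (-2.04 to -0.01) did not pass (adjusted p = 0.0618 and 0.0916). The WT difference passed with the replicate block (adjusted p = 0.0234), with only the groups compared (adjusted p = 0.0079), with array weights (-0.96, adjusted p = 0.0427), and without Act NS 1 or Act NS 3, which enter only through the shared spread (adjusted p = 0.0227 and 0.0071). It also passed, at a larger fold, with a pseudocount of 0.1 (-1.53, adjusted p = 0.0495) and with limma-voom on recovered reads (-1.84, adjusted p = 0.0327). In the other 16 of 23 alternatives it did not pass, the smallest value being that after quantile normalization (-0.40, adjusted p = 0.44). The Act difference passed in 3 of 23, among them without Act NS 1 (-1.47, adjusted p = 0.0113), whereas without Act NS 3 it was -0.46 (adjusted p = 0.25) and after quantile normalization -0.43 (adjusted p = 0.47). Keratinocyte markers moved with *Hyal1* in part. In Act NS both were lowest in library 1 and highest in library 3 (marker sums of 1378, 3273 and 5049 RPKM). WT 5dw 3 was the highest wound library for both. In WT NS, however, *Hyal1* was lowest in WT NS 2 and the marker sum in WT NS 1 (1342 RPKM). WT 5dw 1 held more *Hyal1* than WT 5dw 2 but the lower marker sum (182 against 367 RPKM). The part of keratinocyte RNA in the *Hyal1* values was not tested. About 50.7% of its 31-base stretches also occur in other genes, mainly in the overlapping *Naa80*, so that its level is uncertain.

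Among 10 other genes that break down hyaluronan or its fragments, 5 passed the filter. Of these, 3 rose in both genotypes, beside 7.4% of all tested genes. *Cemip*, which encodes a protein that binds hyaluronan and promotes its cleavage, was 0.0175 to 0.205 RPKM in NS and 1.30 to 2.96 RPKM in 5dw. It rose by log2FC 2.52 in WT and 1.85 in Act mice (adjusted p = 3.8e-06 and 7.7e-05). The filter kept it only for its wound values, as no NS library reached 1 RPKM. *Tmem2*, whose product is a membrane protein related to that of *Cemip*, was 3.31 to 7.36 RPKM in NS and 9.26 to 12.46 RPKM in 5dw, and rose by 0.98 and 1.06 (adjusted p = 0.0126 and 0.0186). Without Act 5dw 1 or Act 5dw 3 its Act values were 0.99 and 1.13 (adjusted p = 0.0964 and 0.0706). *Gusb*, the lysosomal β-glucuronidase that trims fragments, rose by 0.52 and 0.65 (adjusted p = 0.0016 and 0.0012). *Hyal5* and *Spam1*, hyaluronidases of the testis, were listed at 0 in all 11 libraries, and *Hyal3*, *Hyal4* and *Hyal6* were below the filter. Within the hydrolases tested, *Hyal2* was thus lower and *Cemip* and *Tmem2* higher in the same wound libraries, with *Cemip* tested only because of its wound values.

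**Figure D3:**
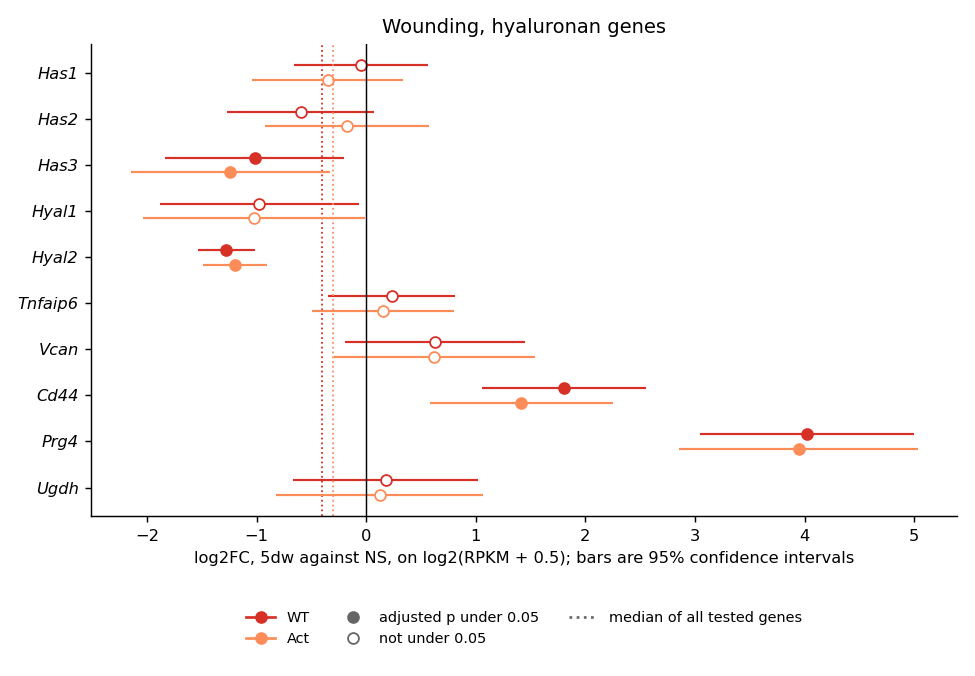
Log2FC of 5dw against NS with 95% confidence intervals for the 10 genes, in WT and Act mice; filled points have an adjusted p under 0.05 (limma-trend, Benjamini-Hochberg), and dotted lines mark the median of all tested genes (-0.40 and -0.31). *Prg4* lies near 4 in both genotypes, *Cd44* at 1.80 and 1.42, and *Hyal2* at -1.28 and -1.19 with the narrowest intervals.

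*Tnfaip6* (chr2:52038009-52056686, plus strand) encodes TSG-6, a secreted protein that binds hyaluronan and helps to transfer heavy chains onto it. It was the most abundant of the 10, at rank 19 in NS and rank 14 in 5dw. WT NS libraries held 899, 1694 and 986 RPKM and those of Act NS 865, 1395 and 1228. Wound libraries held 1195, 1707 and 1198 RPKM in WT and 1239 and 1292 RPKM in Act mice. All groups overlapped, with log2FC 0.23 in WT (-0.35 to 0.81, adjusted p = 0.46) and 0.15 in Act mice (-0.50 to 0.80, adjusted p = 0.70). *Tnfaip6* was called in none of the 24 alternatives in either genotype, the smallest adjusted p being 0.0535, in WT mice after median-ratio scaling.

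*Vcan* (chr13:89655312-89742509, minus strand) encodes versican, a large chondroitin sulphate proteoglycan that binds hyaluronan. Its values were 17.2, 51.8 and 22.7 RPKM in WT NS and 20.6, 46.6 and 38.0 RPKM in Act NS. They were 47.3, 42.4 and 38.2 RPKM in WT 5dw and 56.2 and 47.0 RPKM in Act 5dw. WT NS 2 was above all WT wound libraries and the other 2 were below them, whereas the Act groups did not overlap. The log2FC was 0.63 in WT (-0.19 to 1.45, adjusted p = 0.17) and 0.62 in Act mice (-0.30 to 1.54, adjusted p = 0.24). Without WT NS 2 the WT value was 1.08 (adjusted p = 0.0115), and after median-ratio scaling it was 1.08 as well (adjusted p = 0.0341). It also passed with array weights (0.72, adjusted p = 0.0442) and with the 3 libraries numbered 2 left out (1.09, adjusted p = 0.0212). In the other 20 of 24 alternatives it did not, and without WT NS 1 the WT value was 0.30 (adjusted p = 0.50). In Act mice it passed in 0 of 24, with 0.29 without Act NS 1 (adjusted p = 0.57).

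*Prg4* (chr1:150449412-150466165, minus strand) encodes lubricin, a mucin-like glycoprotein best known from joint surfaces, where it works with hyaluronan. It had the largest change of the 10. NS libraries held 4.25, 11.8 and 4.28 RPKM in WT and 8.44, 12.2 and 6.72 RPKM in Act mice. Wound libraries held 71.9, 118 and 138 RPKM in WT and 87.9 and 234 RPKM in Act mice. All wound values were above all NS values, and the rank moved from 4227 to 292. The log2FC was 4.02 in WT (3.05 to 5.00, adjusted p = 4.9e-05) and 3.94 in Act mice (2.85 to 5.03, adjusted p = 1.6e-04). Act 5dw 3 set the upper end: without it the Act value was 3.24 (adjusted p = 0.0034), and without Act 5dw 1 it was 4.65 (adjusted p = 4.4e-04). The Act value above is set against Act NS. The paper set both genotypes against WT NS, and lists *Prg4* among matrix genes raised more in Act wounds. It was thus picked from these samples, so its direction is no independent evidence. It shares 4.96% of its 31-base stretches with other genes, mainly *Tpr* on the opposite strand.

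Other proteins that bind or cross-link hyaluronan were mostly low. Of 17 genes, 7 passed the filter, of which 1 rose and 3 fell in both genotypes, beside 7.4% and 34.1% of all tested genes. *Hapln4*, a link protein that stabilises proteoglycans on hyaluronan and is known from the brain, was 0.139 to 0.687 RPKM in NS and 2.10 to 3.55 RPKM in 5dw (log2FC 1.91 and 1.82, adjusted p = 8.5e-05 and 3.4e-04). It reached 1 RPKM only in wounds, so the filter kept it only for its wound values. *Hapln3*, another link protein, fell (log2FC -1.28 and -1.08, adjusted p = 0.0012 and 0.0076), a call lost after quantile normalization (adjusted p = 0.0663 and 0.15). The filter kept *Hapln3* only for its NS values, as no wound library reached 1 RPKM. *Itih5*, a member of the family of inter-α-trypsin inhibitor heavy chains, was 56.0 to 111 RPKM in NS and 20.6 to 42.7 RPKM in 5dw and fell (log2FC -1.72 and -1.39, adjusted p = 8.3e-04 and 0.0069). Without Act 5dw 3 its Act value was -0.91 (adjusted p = 0.0963). *Habp4* fell (log2FC -0.64 and -0.46, adjusted p = 0.0014 and 0.0186), but was -0.21 and -0.13 after median-ratio scaling (adjusted p = 0.22 and 0.52); without Act 5dw 3 or Act NS 2 its Act value was -0.36 and -0.41 (adjusted p = 0.15 and 0.0606). The heavy chain genes *Itih1* to *Itih4* and *Ambp*, the source of bikunin, were below the filter.

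Genes that build the chondroitin sulphate chains carried by versican went up more often than down. Of 19 genes, 16 were tested, and 5 rose and 1 fell in both genotypes, beside 7.4% and 34.1% of all genes; the median over the 16 was 0.22 in WT and 0.48 in Act mice. *Csgalnact1*, which starts the chain, went from 1.198 to 3.02 RPKM in NS to 9.63 to 12.3 RPKM in 5dw (log2FC 2.49 and 1.87, adjusted p = 3.5e-06 and 6.1e-05). *Chsy1*, a chain polymerase, rose by 1.25 and 1.71 (adjusted p = 9.5e-05 and 4.0e-05), and *Chst11*, a 4-O-sulphotransferase, by 1.37 and 1.61 (adjusted p = 7.4e-04 and 8.1e-04). *Chst7*, a 6-O-sulphotransferase, fell (log2FC -1.29 and -1.503, adjusted p = 5.1e-04 and 5.9e-04). It reached 1 RPKM only in NS, so the filter kept it only for its NS values. All 4 were called under every alternative run on them, both scalings included. *Adamts15* and *Adamts9*, 2 of the 5 tested proteases that cut versican, rose by 1.19 and 1.24 (adjusted p = 5.0e-04 and 0.0011) and by 0.74 and 0.73 (adjusted p = 0.0027 and 0.0074); without Act 5dw 3 the Act value of *Adamts9* was 0.70 (adjusted p = 0.0518). None of the 5 proteases was called lower. By values alone, *Adamts4* was lower in every WT wound library (52.1 to 55.5 RPKM) than in WT NS (59.4 to 81.2 RPKM). In Act mice its values overlapped.

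*Cd44* (chr2:102811141-102901665, minus strand) encodes the main cell-surface receptor of hyaluronan. WT NS libraries held 29.4, 58.6 and 31.1 RPKM and Act NS libraries 26.5, 59.7 and 67.7 RPKM. WT 5dw libraries held 125, 149.9 and 125 RPKM and Act 5dw libraries 139 and 118 RPKM. Wounds and NS did not overlap, and spread was smaller in the wounds. The log2FC was 1.80 in WT (1.05 to 2.55, adjusted p = 0.0012) and 1.42 in Act mice (0.58 to 2.25, adjusted p = 0.0111). Without Act 5dw 1, which leaves 1 library in that group, the Act value was 1.30 (adjusted p = 0.0732). Keratinocytes and blood cells express *Cd44* too, although the sort kept CD140a+ cells and left out CD45+, CD3+, CD11b+ and F4/80+ cells. Of the 14 keratinocyte markers 10 fell in both genotypes and *Krt6a* rose in WT wounds, macrophage markers summed to 12.8 to 20.5 RPKM in NS and 22.1 to 29.1 RPKM in 5dw, and *Ptprc* was 0.0498 RPKM or less in all libraries. The part of these cells in the *Cd44* values was not tested. Values over all transcripts do not show which variants of *Cd44* were made.

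Among 7 other receptors 5 were tested, of which 2 rose and 2 fell in both genotypes, beside 7.4% and 34.1% of all tested genes. *Hmmr*, the gene of RHAMM, which is also a gene of dividing cells, rose by log2FC 1.15 and 0.81 (adjusted p = 0.0012 and 0.0184), and *Stab1*, a scavenger receptor, by 0.89 and 0.80 (adjusted p = 0.0136 and 0.0459). *Hmmr* stayed below 1 RPKM in all NS libraries, so the filter kept it only for its wound values. *Tlr2* fell (log2FC -1.34 and -1.44, adjusted p = 4.6e-04 and 8.6e-04) and *Tlr4* (log2FC -1.25 and -0.98, adjusted p = 4.2e-04 and 0.0043); both encode innate immune receptors for which hyaluronan fragments are described as ligands. The Act call of *Hmmr* was lost without Act 5dw 1 or Act 5dw 3 (0.72 and 0.91, adjusted p = 0.11 and 0.0570), and that of *Tlr4* without Act 5dw 3 (-0.58, adjusted p = 0.0551) and after quantile normalization (-0.60, adjusted p = 0.0799). *Stab1* lost its WT call without WT 5dw 3 (0.61, adjusted p = 0.0582) or WT NS 3 (0.68, adjusted p = 0.0581), and its Act call without any of 7 single libraries (adjusted p 0.0529 to 0.20). *Lyve1* and *Stab2*, receptors of lymphatic and sinusoidal endothelium, were below the filter. Of the 3 proteins that link CD44 to actin, *Rdx* (radixin) fell (log2FC -0.66 and -0.53, adjusted p = 0.0085 and 0.0487), or -0.21 and -0.18 after median-ratio scaling (adjusted p = 0.25 and 0.40); its Act call was lost without any of 9 single libraries (adjusted p 0.0512 to 0.27).

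**Figure D4:**
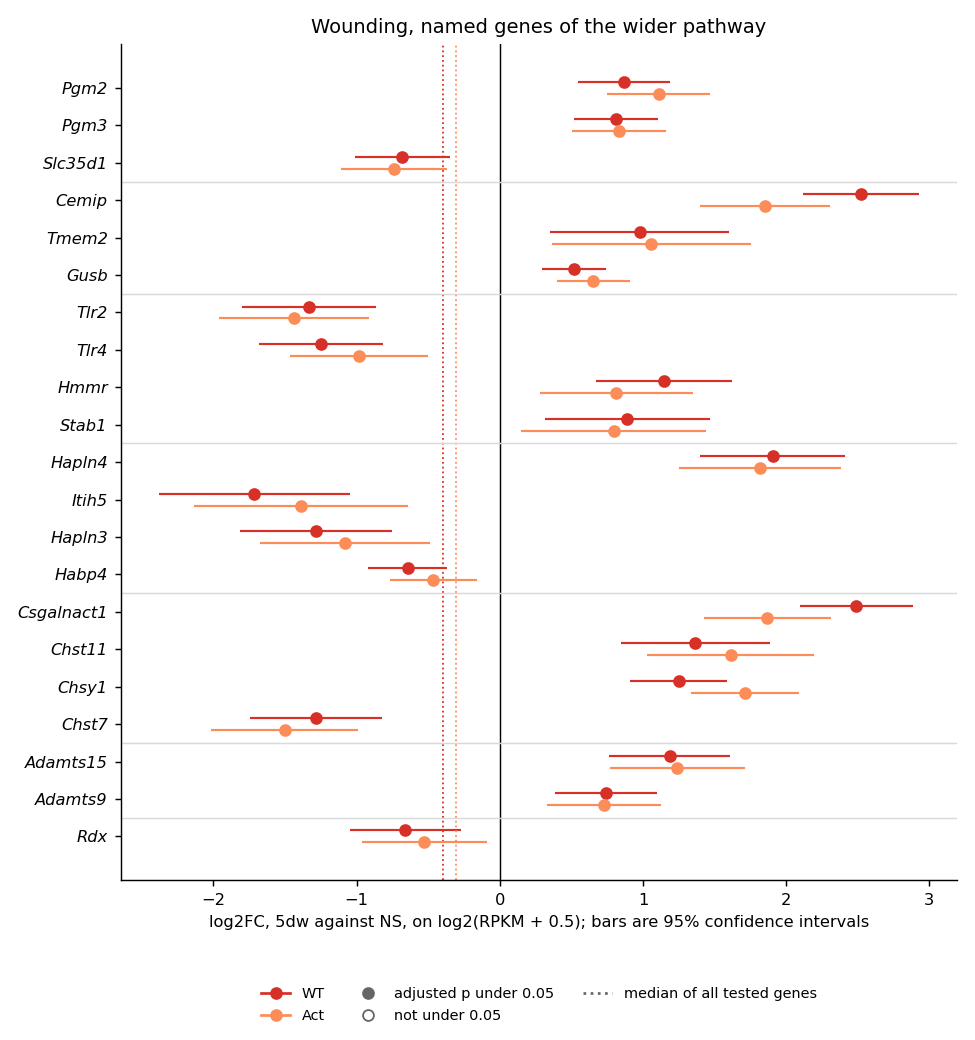
Log2FC of 5dw against NS with 95% confidence intervals for the named genes of the wider pathway, in WT and Act mice, grouped by grey lines into UDP-sugar supply, other breakdown, other receptors, other binding proteins, chondroitin sulphate synthesis, versican-cleaving proteases and CD44 linkers. *Cemip* (2.52 and 1.85) and *Csgalnact1* (2.49 and 1.87) lie farthest right, and dotted lines mark the median of all tested genes.

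The activin transgene was not accompanied by a call in any of the 10 genes, *Prg4* included, which the paper lists as activin-regulated. In Act NS against WT NS their log2FC ran from -0.36 (*Has2*) to 0.52 (*Prg4*), with unadjusted p of 0.26 or more. In Act 5dw against WT 5dw it ran from -0.28 (*Hyal1*) to 0.44 (*Prg4*), with unadjusted p of 0.16 or more. The *Prg4* value turned with single libraries: it was -0.26 without Act 5dw 3 and 1.15 without Act 5dw 1 (adjusted p = 1 for both). For the interaction, the difference between the wounding effects, it ran from -0.38 (*Cd44*) to 0.42 (*Has2*), with unadjusted p of 0.37 or more. limma-trend thus called 0 of 10 in each comparison, 0 of 10 had an unadjusted p under 0.05, and limma-voom on recovered reads called 0 of 10 as well. Of all tested genes 0.0167% were called in NS (0.00835% higher and 0.00835% lower), 0.0334% in 5dw (0.00835% higher and 0.025% lower) and 0% for the interaction. The 2 genotypes overlapped in all 10 genes in both tissues, whereas 0.993% of tested genes lay apart as higher and 7.98% as lower in Act NS, and 7.87% and 15.2% in Act 5dw. The intervals bound what was missed: in wounds *Hyal2* differed by -0.09 to 0.50 on the log2 scale, *Tnfaip6* by -0.74 to 0.56, *Has1* by -0.91 to 0.46, *Cd44* by -0.89 to 0.78 and *Prg4* by -0.65 to 1.53. In wounds a 2-fold genotype difference therefore lay within the interval for *Has3*, *Hyal1*, *Vcan*, *Prg4* and *Ugdh*. In NS it did so for *Has2*, *Hyal1*, *Vcan*, *Cd44* and *Prg4*. The intervals of the remaining genes excluded it in the tissue concerned.

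Libraries of the same group differed more in these genes than in most. The pooled spread within groups (SD on the log2 scale) was 0.36 to 0.66 for 9 of the 10 genes, beside a median of 0.20 over all tested genes, and 86.3% to 97.0% of tested genes had a lower one. *Hyal2* was the exception at 0.12, with 10.8% of genes below it. For *Has1*, *Tnfaip6* and *Ugdh* the library numbered 2 was the highest in WT NS, in Act NS and in WT 5dw, as it was for 7.06% of all tested genes. *Has1* was 1.25, 1.60 and 1.76 times the mean of the other 2 libraries of these groups, *Tnfaip6* 1.80, 1.33 and 1.43 times and *Ugdh* 1.83, 1.73 and 1.87 times. Other genes of the pathway, named after their values were seen, had the same order: *Ptx3*, a pentraxin that binds TSG-6 (2.01, 2.21 and 1.80 times), *Uap1*, which makes UDP-N-acetylglucosamine (1.68, 1.51 and 1.78 times), and *Gfpt2*, which starts the hexosamine pathway (1.54, 1.66 and 1.63 times). In all, 5 of the 14 UDP-sugar genes, *Ugdh* included, showed it. It was also seen in 2 of 7 other binding proteins, 2 of 5 versican-cleaving proteases, 1 of 16 chondroitin sulphate genes, 1 of 4 macrophage markers (*Lyz2*) and 1 of 12 immediate-early genes. It was seen in 0 of 5 other genes of hyaluronan breakdown, 0 of 5 other receptors, 0 of 3 CD44 linkers, 0 of 12 fibroblast markers, 0 of 14 keratinocyte markers, 0 of 7 pericyte markers and 0 of 5 heat-shock genes. The immediate-early and heat-shock lists were chosen after values were seen. The numbers come from the labels, and no library numbered 2 exists for Act 5dw, so that the group mean of Act 5dw lacks it. With all 3 left out the wounding log2FC was -0.22 and -0.12 for *Has1*, 0.35 and 0.30 for *Tnfaip6* and 0.17 and 0.42 for *Ugdh* in WT and Act mice, with no call.

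**Figure D5:**
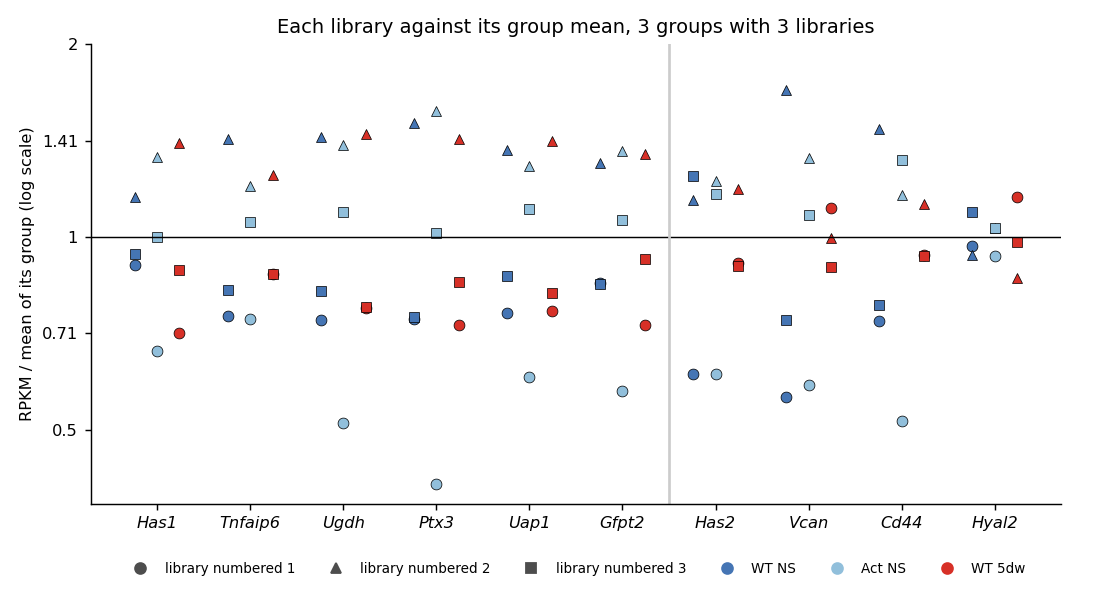
RPKM of each library divided by the mean of its group (log axis) for 10 genes in the 3 groups with 3 libraries; shapes give the library's number and colours the group. Left of the grey line, in *Has1*, *Tnfaip6*, *Ugdh*, *Ptx3*, *Uap1* and *Gfpt2*, the triangle of the library numbered 2 is the top point in all 3 groups; to its right, in *Has2*, *Vcan*, *Cd44* and *Hyal2*, it is not.

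Patterns over all 11 libraries were compared by the root mean square difference of centred log2 values, where 0 means the same pattern. Nearest to *Has1* were *Errfi1*, a feedback inhibitor of the EGF receptor (0.139), and *Med7*, a Mediator subunit (0.162). *Has2* was nearest to *Rpf2* (0.126) and *Noc3l* (0.132). For *Tnfaip6* they were *Snhg6* (0.0993) and *Gm10275* (0.116), and for *Vcan* *Bach1* (0.224) and *Col11a1* (0.238). *Prg4* was nearest to *Timp1*, an inhibitor of matrix metalloproteinases (0.262), and to *Gm11843* (0.535). *Timp1* was 32.9 to 71.8 RPKM in NS and 533 to 1143 RPKM in 5dw, with Act 5dw 3 the highest for both genes.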

How the data were processed

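RNA sequencing of fibroblasts, sorted as CD45-CD140a+ live cells, covered 11 libraries in 4 groups. Per the labels and the study's methods, the authors enriched poly-A RNA, prepared stranded libraries for single-end sequencing, aligned reads to GRCm38 in the CLC Genomics Workbench, counted per gene and deposited RPKM values for 47643 symbols; their own comparisons used the edgeR exact test, which needs counts and was not repeated here. The annotation and the strand setting of counting are not given in the sources used here. RPKM divides by mapped reads, so that a few very abundant transcripts in one tissue lower the values of all others. The table holds no column outside these samples.

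Values were tested with limma 3.58.1 in R 4.3.3: limma-trend on log2(RPKM + 0.5) for 11979 genes with at least 1 RPKM in at least 2 libraries, with 4 group means over 11 libraries (7 residual degrees of freedom) and Benjamini-Hochberg adjustment per comparison at 0.05. Adjusted p-values and log2FC in the text come from this fit unless another is named. Replicates are pools whose spread may be partly technical, since mice were pooled across sorting sessions. The 10 genes and all lists were chosen with earlier results of these data known. Named were all 10 genes, for each wider list up to 4 genes called in the same direction in both genotypes in order of size, the 2 nearest patterns of *Has1*, *Has2*, *Tnfaip6*, *Vcan* and *Prg4*, and check genes. Positions and transcript sequences came from GENCODE M21, where 45090 symbols matched once.

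Whole reads were recovered by finding the library total that makes RPKM times length whole: 74.1% to 76.1% of low values came out whole within 0.03. Simulated data had 200 changed genes. A 4-fold change was found in 98% and a 2-fold change in 68% for WT 5dw against WT NS. The shares were 95% and 57% for Act 5dw against Act NS. They were 97.5% and 70% for Act NS against WT NS, and 96% and 59.5% for Act 5dw against WT 5dw. The real wounding comparisons called far more genes (6978 in WT and 5459 in Act mice). Most of the 10 genes also spread more within groups than the median gene, so these shares need not hold for them. Same-numbered libraries deviated together in all 9 pairs of WT NS, Act NS and WT 5dw (correlation of deviations from group means at least 0.109). Pairs with Act 5dw did not all do so. The number was used as a block only in an alternative fit, which included Act 5dw, and not in the main fit. Alternatives were other pseudocounts, filters, scalings and variance models, the replicate block, fits on the compared groups only and left-out libraries. limma-voom on recovered reads and the fit without the 3 libraries numbered 2 were added after seeing the data.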

Additional observations from a re-analysis of the deposited data

How the results depend on the processing

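Calls among the 10 genes changed with the processing for *Has2*, *Has3*, *Hyal1*, *Vcan* and *Cd44*. In WT 5dw against WT NS the count called lower (2) was 1 without a filter, with a filter of 5 RPKM, after median-ratio scaling, after quantile normalization and with the 3 libraries numbered 2 left out, because *Has3* was lost or removed, and 4 with the replicate block, which added *Has2* and *Hyal1*. It was 3 with a pseudocount of 0.1 or limma-voom on recovered reads (*Hyal1* added), with array weights (*Has2* and *Hyal1* added, *Has3* lost) and with both NS libraries numbered 1 left out (*Has2* added), and 1 to 3 when single libraries were left out. With only the groups compared it stayed at 2, with *Hyal1* in place of *Has3*. The count called higher (2) was 3, with *Vcan* added, after median-ratio scaling, with array weights, without WT NS 2 and with the 3 libraries numbered 2 left out. In Act 5dw against Act NS the count called lower (2) was 1 under the first 5 of these and with limma-voom on recovered reads, and 4 with both NS libraries numbered 1 left out, which added *Hyal1* and *Has2* (-0.49, adjusted p = 0.0342, against 0.70 with all libraries); leaving out single libraries gave 1 to 3 lower and 1 to 2 higher. No call of a gene turned its sign. In the Act comparison the numbers did not pair the libraries (2 pairs, correlations 0.0187 and 0.143), and with the replicate block *Hyal1* was called there (-1.16, adjusted p = 0.0265). The block changed no other call of the 10 genes. In the wider lists *Rdx* lost its Act call with it (-0.50, adjusted p = 0.0638). *Hyal2* and *Prg4* were called under all 24 alternatives in both genotypes, *Cd44* under 24 in WT and 23 in Act mice. Fits on the compared groups only give no interaction. The filter of 5 RPKM removes *Has3* and *Hyal1*, and *Hyal2* was kept. Between 15 and 234 reads stood behind *Hyal1*, 116 to 476 behind *Hyal2* and 35408 to 113058 behind *Tnfaip6*, with spreads within groups of 0.60, 0.12 and 0.36 (log2). Without Act 5dw 1 or Act 5dw 3 that group is 1 library, assumed to vary like the other groups. The cause of other changes was not tested.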

Other observations

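Fibroblast markers gave a frame for the hyaluronan genes. Of 12, 6 rose and 3 fell in both genotypes, beside 7.4% and 34.1% of all tested genes. *Col1a1*, a collagen I chain and the most abundant of them in wounds, had log2FC 1.51 in WT and 1.503 in Act wounds (adjusted p = 0.0016 and 0.0042). *Pdgfra* fell (log2FC -0.63 and -0.80, adjusted p = 0.0025 and 0.0018). After median-ratio scaling the WT value of *Pdgfra* was -0.18 (adjusted p = 0.27). The Act call of *Col1a1* was lost after quantile normalization (0.67, adjusted p = 0.0710) and without a filter (adjusted p = 0.0863).

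Markers of blood cells were low but not absent. Neutrophil markers summed to 0.353 to 1.22 RPKM in NS and 3.10 to 21.7 RPKM in 5dw, where the larger part was *S100a9*, which is also made by wound keratinocytes; WT 5dw 3 was the highest. Macrophage markers summed to 12.8 to 20.5 RPKM in NS and 22.1 to 29.1 RPKM in 5dw, with *Cd14* the most abundant in wounds. Pan-immune markers summed to 13.2 to 16.9 RPKM in NS and 9.97 to 13.4 RPKM in 5dw, nearly all of it *Arhgdib*. Endothelial markers summed to 22.2 to 39.0 RPKM in NS and 21.9 to 29.0 RPKM in 5dw, led by *Tek*, lymphatic endothelial markers to 0.760 to 1.70 RPKM and 0.418 to 0.677 RPKM, led by *Reln*, and pericyte markers to 56.5 to 113 RPKM and 67.2 to 113 RPKM, led by *Ndufa4l2*.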
